A study of Homo sapiens with 58 samples.

Results

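The comparison described here is between RNA fragments bound by HuR that were captured near G3BP1 and all RNA fragments bound by HuR, in stressed cells. It rests on 12 of the 58 libraries of the series: 7 enriched and 5 input libraries, chosen by their labels and table columns. All 12 came from Huh-7.5, a human hepatocellular carcinoma line, in the form labelled APEX-G3BP1, which carries the peroxidase APEX joined to G3BP1. Per the labels' protocols, every one of these cultures received 0.5 mM sodium arsenite for 45 min, 0.5 mM biotin phenol for 30 min and 1 mM hydrogen peroxide for 1 min. UV light of 254 nm followed, at 400 and then 200 mJ/cm2. HuR was immunoprecipitated with the antibody 3A2 in both groups, and the enriched group had a further streptavidin capture step. Nothing in the labels says whether replicates came from separate cultures, so p-values measure the spread between libraries.

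HuR, encoded by ELAVL1, binds U-rich and AU-rich stretches in introns of pre-mRNA and in the 3'UTRs of mature mRNA. It is mostly nuclear in resting cells, shuttles to the cytoplasm and joins stress granules after arsenite. Stress granules are cytoplasmic assemblies of stalled mRNA and proteins that G3BP1 helps to nucleate. APEX activated by hydrogen peroxide tags nearby proteins with biotin, so streptavidin takes down the HuR molecules that were close to the bait. In CLIP-seq, each sequenced tag marks an RNA fragment that UV light had joined to the immunoprecipitated protein.

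Each value of the deposited table is a peak's tag number over the total of the library, and whole tags were recovered from these values. It lists 387214 distinct peaks, of which 227575 held a tag in the 12 libraries. The library totals ran from 13149 to 1206979 tags. Input libraries held 2666 to 227274 tags in peaks and enriched libraries 1391 to 49736. Enriched 1 and input 1 were the shallowest. The libraries fall into 3 sets by the prefix of their description: JL0361 (enriched 1 to 3, input 1 to 3), JL0388 (enriched 4 and 5, input 4) and JL1024 (enriched 6 and 7, input 5, whose number in the description reads All). Differences below are adjusted for set. Enriched 4 and 5 differed by no more than sampling noise and were counted as 1 library in each mean ± SD, so the enriched n is 6 there. The tests kept all 7 enriched libraries unless stated. Of the 10 hepatocyte markers, 6 held tags, and they summed to 117 to 571 CPM, tags per 1000000 of the library total, in input and 179 to 902 in enriched libraries. ALB and AFP had tags in both groups, TF had tags in input libraries alone, and APOA1, APOA2, TTR and AHSG were at 0. Of the 4 leukocyte markers, CD3E and CD68 were at 0, and the list summed to at most 14.9 CPM in enriched and 117 in input libraries. That 117, like the lowest hepatocyte sum, came from the shallow input 1, where 1 tag is 58.6 CPM. The input medians were 4.14 CPM for the leukocyte and 431 for the hepatocyte markers. The 4 fibroblast markers were at 0 in every enriched library.

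A smaller part of each captured library lay in peaks. Tags in the listed peaks made up 11.2% ± 3.44 (SD, n = 6) of the enriched and 17.3% ± 3.56 (SD, n = 5) of the input library totals. The set-adjusted difference was -5.50 percentage points. The exact two-sided permutation test within sets gave p = 0.0056, the smallest p that its 180 labelings can give. With enriched 4 and 5 counted once, the difference was -5.68 points (exact permutation p = 0.0083). Enriched libraries were lower than every input library of their set in all 3 sets, with differences of -8.65 points in JL0361, -2.59 in JL0388 and -1.33 in JL1024. Since the peaks take up a smaller part of the enriched libraries, shares of tags in peaks and levels per library total are both given below.

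Among the 10 classes of peak in the authors' annotation, the intron share was lower in captured libraries of every set, and the 3'UTR share was higher in all but 1 of them. Introns held 31.9%, 34.5%, 34.7%, 43.5% and 39.9% of the tags in peaks of input 1 to 5. They held 11.0%, 11.8%, 11.5%, 14.4%, 15.7%, 32.7% and 18.8% in enriched 1 to 7. Only enriched 6 reached the range of the input libraries, and it still lay under the input of its own set. The means were 16.8% ± 8.34 (SD, n = 6) in enriched and 36.9% ± 4.69 (SD, n = 5) in input libraries, and the difference was -21.8 points (exact permutation p = 0.0056, or 0.0556 after Benjamini-Hochberg adjustment over the 10 classes, which is the lowest value that 180 labelings allow for a single class). The groups did not overlap in any set, with -22.3 points in JL0361, -28.4 in JL0388 and -14.2 in JL1024. Over the 4 same-numbered pairs of libraries the difference was -24.0 points, where an exact sign-flip test cannot go below p = 0.125. As a part of the library total, intron tags differed by -4.60 points (exact permutation p = 0.0056). With enriched 4 and 5 counted once, the intron share differed by -21.4 points (exact permutation p = 0.0167).

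The 3'UTR share was 26.9%, 33.1%, 32.4%, 23.6% and 24.3% in input 1 to 5. It was 22.4%, 49.0%, 48.4%, 61.8%, 59.5%, 28.0% and 44.6% in enriched 1 to 7. All enriched libraries but the shallow enriched 1 lay above the input of their own set. The difference of 16.4 points did not pass the test (exact permutation p = 0.0611, adjusted p = 0.139). It was 21.4 points without enriched 1 (exact permutation p = 0.0111). As a part of the library total, the 3'UTR tags differed by 0.60 points (exact permutation p = 0.717). The higher share stood beside a lower intron level per library total, and no difference in the 3'UTR level per library total was detected.

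**Figure D1:**
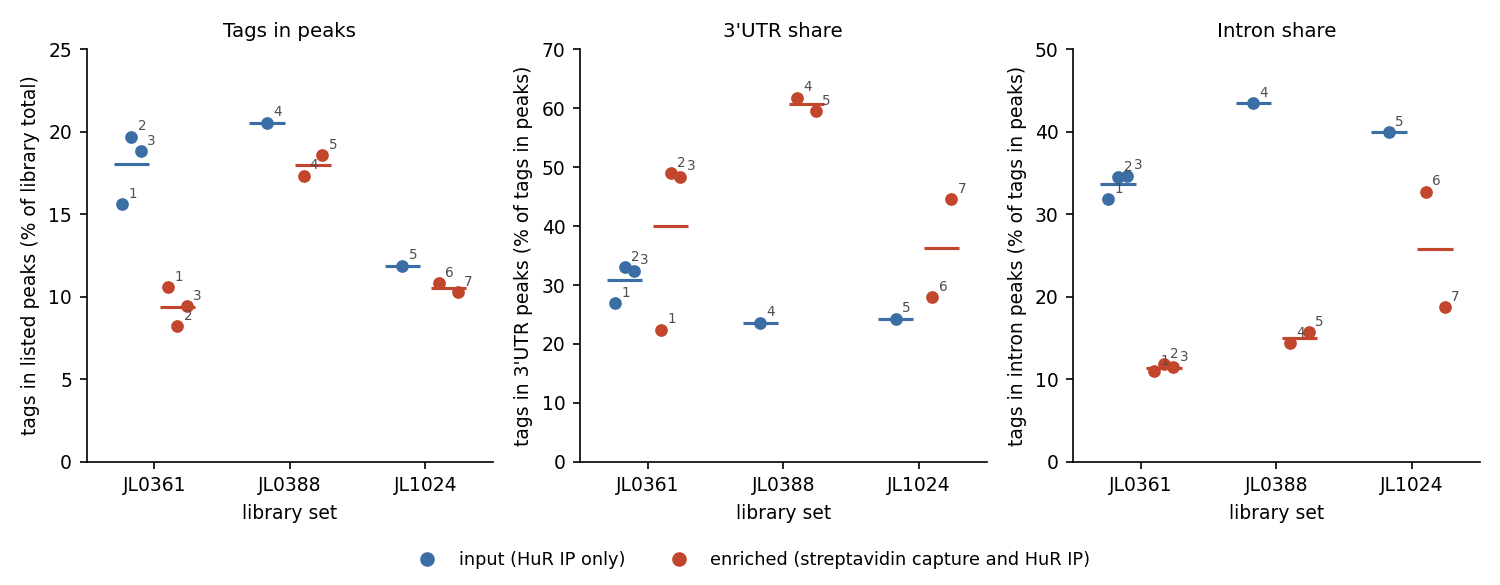
Each point is 1 library, numbered by replicate, with input in blue and enriched in red, by library set; lines are means. The panels show tags in peaks in percent of the library total and the 3'UTR and intron shares in percent of tags in peaks; the intron share is lower in enriched libraries of every set, from -14.2 to -28.4 points.

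No class had an adjusted p under 0.05 over the 10 classes, and introns alone had an exact p under 0.05 before adjustment. With only peaks of at least 10 tags, introns differed by -7.95 points (exact permutation p = 0.0056) and 3'UTRs by 7.13 points (p = 0.356). The ncRNA class differed by -3.69 points (exact permutation p = 0.0556, adjusted p = 0.139) and was lower in the mean of each set. Of the library total it differed by -1.13 points (exact permutation p = 0.0056). The class that the table calls TE, an abbreviation it does not spell out, differed by 4.42 points (exact permutation p = 0.0667). JL0361 had 8.70 points, against 0.866 in JL1024 and -1.67 in JL0388. Without enriched 1 the TE difference was 2.24 points (exact permutation p = 0.111), and without input 4 it was 6.29 (p = 0.0333). The class Other was above 0 in JL0361 alone, with 5.88 points in JL0361, -0.938 in JL0388 and -0.358 in JL1024. Peaks without annotation differed by 1.78 points (exact permutation p = 0.0722), but by -0.540 points of the library total (exact permutation p = 0.0167). They differed by 2.72 points without input 4 (exact permutation p = 0.0167) and by 2.11 with each peak counted once (p = 0.0389). The 5'UTR, CDS, snoRNA and downstream classes differed by 0.0101 to 0.0874 points. Without input 5 the snoRNA difference was -0.114 points (exact permutation p = 0.0167), and without enriched 7 it was -0.0823 points (exact permutation p = 0.025).

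**Figure D2:**
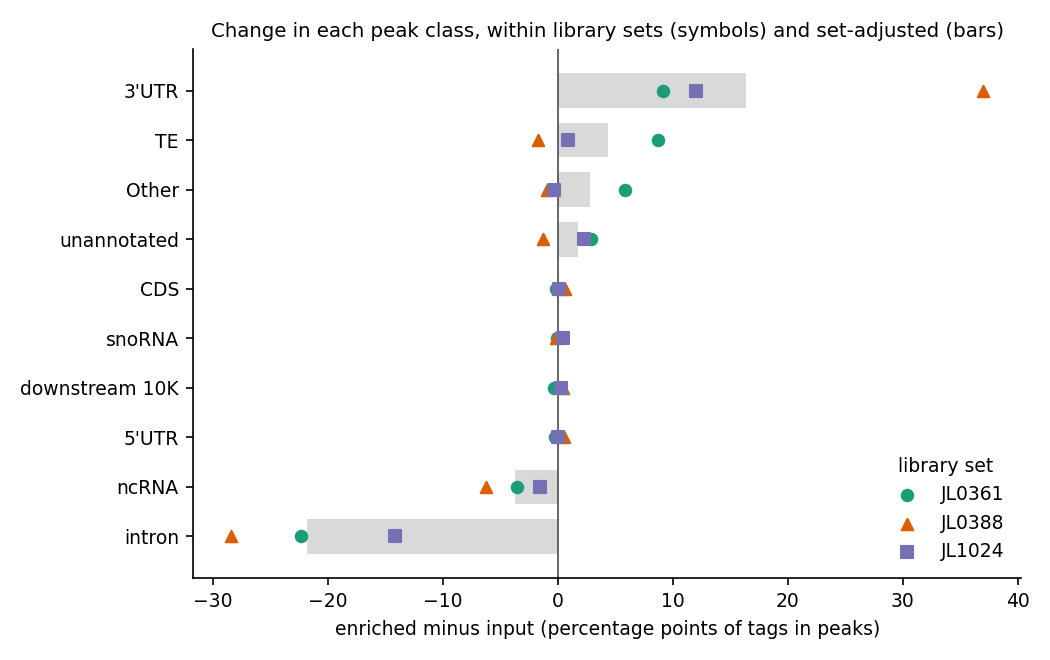
Bars give the set-adjusted difference, enriched minus input, in percentage points of tags in peaks for each peak class, and symbols the difference within each of the 3 library sets. Intron (-21.8) and 3'UTR (16.4) lie farthest from 0 and keep their sign in all sets, whereas TE and Other take different signs.

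The same lean towards the 3'UTR was measured in genes with both kinds of peak, of which there were 6309. Their tags were pooled, so this 3'UTR part within genes can also move with the mix of genes. In these genes the 3'UTR held 47.0%, 49.7%, 49.2%, 36.2% and 39.0% of the 3'UTR and intron tags in input 1 to 5. It held 71.8%, 83.2%, 83.5%, 82.7%, 81.2%, 47.5% and 72.8% in enriched 1 to 7. The enriched libraries lay above the input of their set without exception, and only enriched 6 lay within the range of all input libraries. The means were 73.4% ± 13.7 (SD, n = 6) and 44.2% ± 6.21 (SD, n = 5), 32.1 points apart (exact permutation p = 0.0056, adjusted p = 0.0130 over the 14 measures added after the data were seen). It was 30.8 points in JL0361, 45.8 in JL0388 and 21.1 in JL1024. The shallow enriched 1 stood with the other libraries in this measure.

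The series also holds HuR libraries from nuclear and cytoplasmic fractions, which are not among the 12 libraries. Peaks with at least 10 tags in the mock fractions were called leaning where one fraction was at least 2-fold over the other per library total. By this rule 10749 peaks leaned to the cytoplasm and 11149 to the nucleus. Nucleus-leaning peaks held 3.46% ± 1.98 (SD, n = 6) of the enriched and 7.09% ± 0.815 (SD, n = 5) of the input tags in peaks. Enriched minus input came to -4.07 points (exact permutation p = 0.0056, adjusted p = 0.0130), and the groups did not overlap in any set. Cytoplasm-leaning peaks held 40.3% ± 11.2 (SD, n = 6) and 25.7% ± 4.95 (SD, n = 5), 16.1 points apart (exact permutation p = 0.0444, adjusted p = 0.0691). Counting enriched 4 and 5 once gave 15.2 points (exact permutation p = 0.0833). Leaving out any 1 of input 1 to 5 or enriched 2 to 5 and 7 gave exact permutation p from 0.05 to 0.167. For nucleus-leaning peaks, counting enriched 4 and 5 once gave -3.99 points (exact permutation p = 0.0083).

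The lean was also measured within a class. Among 3'UTR tags alone, cytoplasm-leaning peaks held 75.2% ± 5.06 (SD, n = 6) in enriched and 68.8% ± 5.65 (SD, n = 5) in input libraries, which is 5.62 points more (exact permutation p = 0.0056, adjusted p = 0.0130). Among intron tags alone they held 11.0% ± 3.94 (SD, n = 6) against 3.45% ± 1.21 (SD, n = 5), which is 8.12 points more (same exact p and adjusted p). With peaks sorted by the arsenite fractions, nucleus-leaning peaks differed by -1.40 points (exact permutation p = 0.0389, adjusted p = 0.0681) and cytoplasm-leaning peaks by 1.82 points (exact permutation p = 0.411). Among intron tags alone, nucleus-leaning peaks by these fractions held 5.15% ± 1.27 (SD, n = 6) in enriched and 6.33% ± 0.644 (SD, n = 5) in input libraries. The shift over the sets was -1.35 points (exact permutation p = 0.0056, adjusted p = 0.0130), with no overlap within any of the 3 sets. Among 3'UTR tags they differed by -0.302 points (exact permutation p = 0.344). Cytoplasm-leaning peaks differed by -1.67 points among 3'UTR tags (exact permutation p = 0.417; -3.85 in JL0361) and by 0.299 points among intron tags (exact permutation p = 0.8). Tags on the mitochondrial chromosome differed by -0.0368 points (exact permutation p = 0.778).

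**Figure D3:**
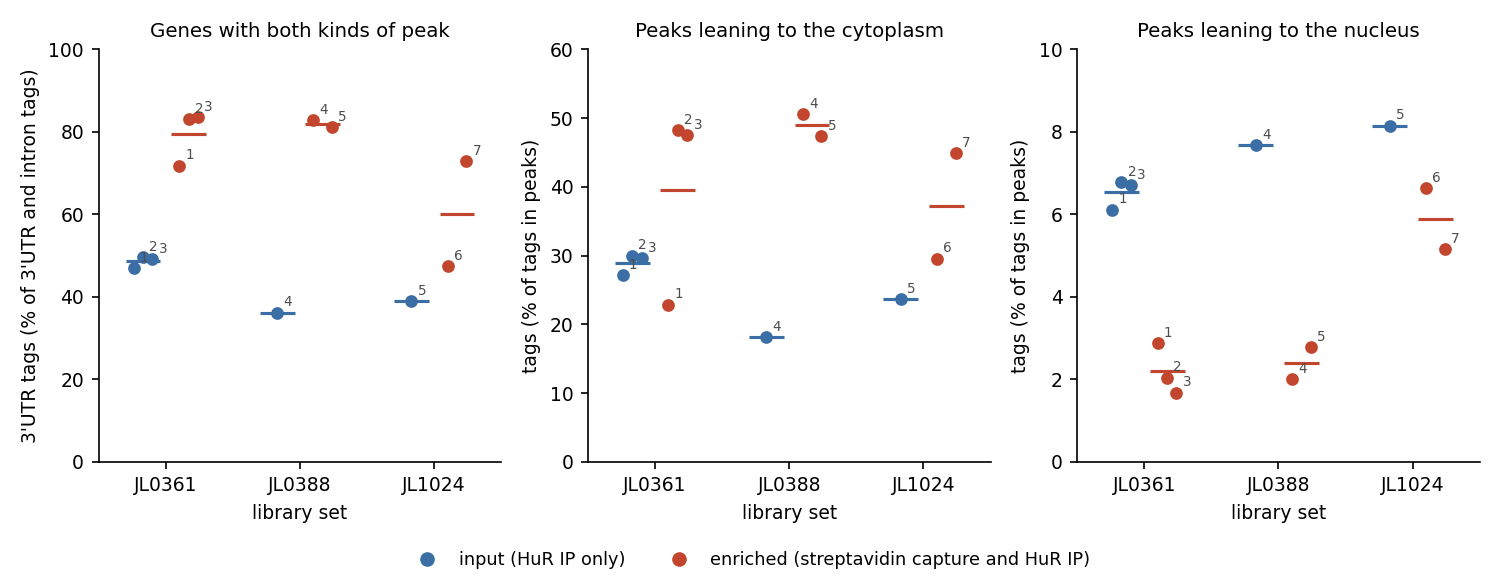
Points are libraries by set as in the plot of shares by library, with replicate numbers and means as lines. Left, the 3'UTR part of 3'UTR and intron tags in genes with both kinds of peak; middle and right, the percent of tags in peaks that leaned to the cytoplasm or the nucleus in mock fractions. Enriched libraries lie above the input of their set in the left panel and below it in the right panel.

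Tags were summed per gene and region, which gave 3284 3'UTRs, 2574 introns and 68 CDS regions to test. limma on log2 values (pseudocount 7.03 CPM) called 215 regions lower and 0 higher of 5926, or 3.63% of those tested, and every one of the 215 was an intron set. That count moved with single libraries: without input 4 limma called 1 region lower, and without input 1 it called 1691, which were 1542 introns, 138 3'UTRs and 11 CDS regions. At an unadjusted p under 0.05 it had 16 regions higher and 1272 lower. edgeR's quasi-likelihood test on whole tags called 1435 lower (24.2%) and 40 higher (0.675%). In that fit 53.7% of the tested introns and 1.52% of the tested 3'UTRs were lower, and 0.66% and 0.67% were higher. The median log2 difference by edgeR was -2.05 for introns and -0.13 for 3'UTRs. Scaled to tags in peaks, limma called 4 regions lower (0.0675%), the introns of CHD2, DCAF6, HOMER1 and LCOR, named here after their values were seen. edgeR with TMM on tags in peaks called 1.43% of regions higher and 17.6% lower. Lower were 1026 introns and 18 3'UTRs. Higher were 55 3'UTRs (1.67% of those tested), 28 introns (1.09%) and 2 CDS regions. The median of 3'UTRs was then 0.21.

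**Figure D4:**
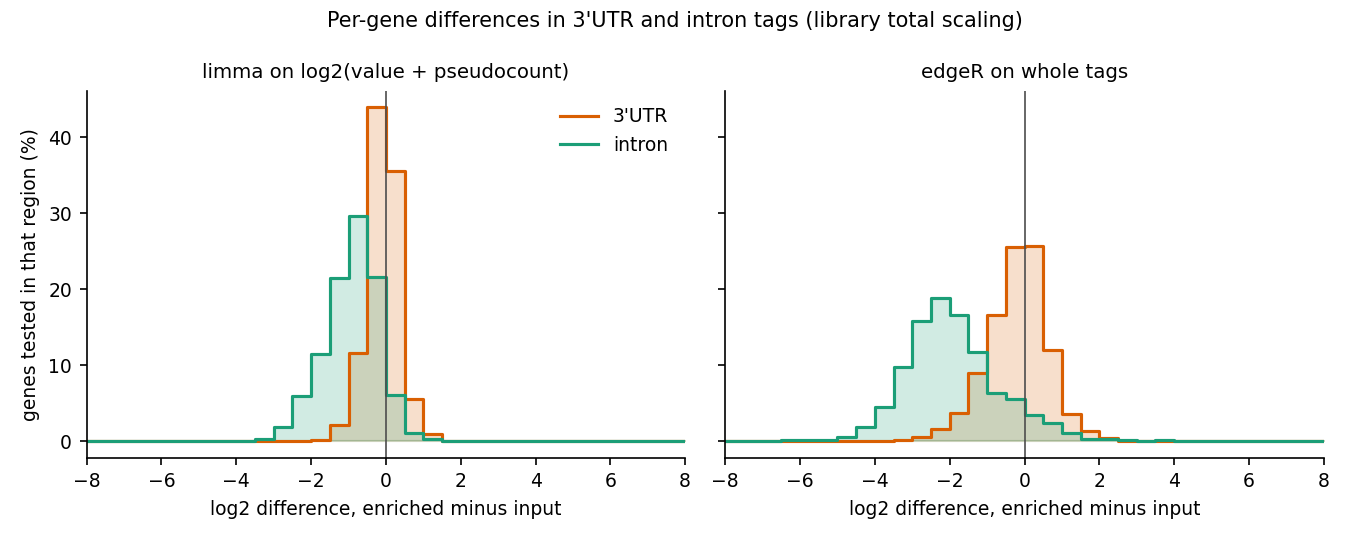
Distribution of the log2 difference, enriched minus input, over genes tested in their 3'UTR (orange) or introns (green), as percent of genes per bin of 0.5, by limma on the left and edgeR on the right. The intron distributions lie to the left, with medians of -0.84 and -2.05, against -0.07 and -0.13 for 3'UTRs.

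In 1318 genes both regions were tested. The 3'UTR difference was above the intron difference in 1191 of them (90.4%) by limma and in 1225 (92.9%) by edgeR. Of the 11 named genes with both regions tested, 10 showed this order. HNRNPU, a nuclear matrix protein that binds pre-mRNA, had 1387 3'UTR tags in input and 363 in enriched libraries, which differed by 0.18 ± 0.51 on the log2 scale (SE; limma adjusted p = 0.919). Its introns had 71 and 3 tags, which differed by -2.18 ± 0.58 (SE; limma adjusted p = 0.0208). CTNNB1, which encodes beta-catenin, had 1032 and 565 3'UTR tags and 158 and 13 intron tags. Its 3'UTR differed by 0.74 and its introns by -1.83, and limma's adjusted p for the introns was 0.0618 where edgeR's was 0.00317. HNRNPH1, a splicing regulator, had 1644 and 789 3'UTR tags against 233 and 25 intron tags (for the introns, limma adjusted p = 0.167 and edgeR adjusted p = 0.00779). TXNRD1, a thioredoxin reductase of the oxidative stress response, had 174 and 61 3'UTR tags against 180 and 10 intron tags (for the introns, limma adjusted p = 0.107 and edgeR adjusted p = 0.00601). DEK, a chromatin protein, was the exception, with 14 intron tags in input and 21 in enriched libraries.

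Summed over all its peaks, few genes were higher after capture. limma tested 5866 genes and called 1 higher (0.017%) and 119 lower (2.03%) per library total, with a median difference over all genes of -0.41. Scaled to tags in peaks it called 2 higher (0.0341%) and 14 lower (0.239%), and the median was -0.18. edgeR called 72 higher (1.23%) and 1332 lower (22.7%), and all 120 limma calls were among its calls. edgeR with TMM on tags in peaks called 156 higher (2.66%) and 640 lower (10.9%). Over 4 same-numbered pairs, limma with a replicate block called 11 genes higher (0.168%) and 381 lower (5.82%), against 0 and 6 for the same 8 libraries without it. The count depended on the libraries: it was 1 higher and 1084 lower without the shallow input 1, 1 higher and 16 lower without input 4, and 0 without the set JL0361 (limma; 37 higher and 961 lower at an unadjusted p under 0.05).

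Genes called lower were intron-rich. In the input libraries a median of 80.8% of the tags of the 119 lower genes lay in introns, against 40.4% over all genes tested. Of the 1332 genes that edgeR called lower, 79.2% had the same sign in all 3 sets. Of the 72 that it called higher, 9.72% did, where 35.9% of all tested genes did.

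The 10 called genes with the lowest log2 differences and 1 sign in all sets were 6 protein-coding genes read mainly in introns and 4 long non-coding RNAs. PTPRK, a receptor-type tyrosine phosphatase, had 176, 286, 283, 403 and 199 CPM in input 1 to 5. It had 0, 16.5, 13.4, 90.2, 0, 59.8 and 59.7 in enriched 1 to 7. Its enriched and input libraries did not overlap. Of its input tags, 970 were intronic and 22 lay in the 3'UTR. The log2 difference was -3.46 ± 0.68 (SE; limma adjusted p = 0.000974; edgeR -3.19). The other protein-coding genes were PHF14 (-3.21), the adiponectin receptor ADIPOR2 (-3.14), the tRNA methyltransferase subunit TRMT11 (-3.11), the bitter taste receptor TAS2R14 (-2.93), whose locus overlaps other transcripts, and the ubiquitin ligase adaptor DCAF6 (-2.90). TAS2R14 (limma adjusted p = 0.0845) and DCAF6 (adjusted p = 0.0524) did not pass when limma was scaled to tags in peaks, nor without input 4 (limma adjusted p = 0.0508 for TAS2R14 and 0.0564 for DCAF6). Without the set JL0361, PTPRK differed by -2.65 (limma adjusted p = 0.234).

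The non-coding RNAs were DLEU2 (-3.29), the host of a microRNA cluster, CALCRL-AS1 (-3.27), ENSG00000251574 (-3.17) and LINC02484 (-3.09). CALCRL-AS1, annotated on chromosome 2, had 411, 302, 279, 345 and 210.1 CPM in input 1 to 5. Its enriched libraries ran from 0 through a median of 35.6 to 93.9. The groups did not overlap.

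MALAT1, a long non-coding RNA kept in nuclear speckles, had 528, 1396, 1246, 1159 and 1377 CPM in input 1 to 5. It had 76.1, 147, 122, 316, 285, 769 and 284 in enriched 1 to 7. Only enriched 6 rose above the lowest input, the shallow input 1. The log2 difference was -2.43 ± 0.43 (SE; limma adjusted p = 7.7e-05; edgeR adjusted p = 4.54e-05). Under the replicate block of limma it was -2.80, with adjusted p = 0.066, and without the set JL0361 it was -1.73, with adjusted p = 0.125. Leaving out any 1 library kept its call. NEAT1, the scaffold RNA of paraspeckles, had 0, 89.3, 87.8, 213 and 33.2 CPM in input 1 to 5 and 0 to 35.6 in the enriched libraries. Its log2 difference of -1.96 missed the threshold with limma (adjusted p = 0.0877) and passed it with edgeR (-3.33, adjusted p = 0.000135), without input 1 (limma, -2.69, adjusted p = 0.0145) and under the replicate block of limma (adjusted p = 0.0481). edgeR also called KCNQ1OT1 lower (-1.81, adjusted p = 0.0375), a call lost with TMM on tags in peaks, which kept those of MALAT1 and NEAT1. Of the 5 listed nuclear RNAs, 3 passed the filter on low values. limma called 1 of these 3 lower, where 2.03% of all genes were, and edgeR called 3, where 22.7% were. Their median was -1.96 beside -0.41 over all genes.

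SLC26A3, an intestinal chloride and bicarbonate exchanger, was the 1 gene called higher, and it was named after its value was seen because its sets did not share a sign. It had 3 to 40 tags in enriched 1 to 3 and 0 in enriched 4 and 5. Its log2 difference was 2.35 ± 0.66 (SE; limma adjusted p = 0.0297), with 3.58 in JL0361, 0 tags and so no difference in JL0388 and 1.94 in JL1024. A single peak of the class TE held 90.2% of its tags. It lost the call without any 1 of enriched 1, 2, 3, 4 and 7 and input 2, 3 and 5, with limma adjusted p from 0.0559 to 0.117. METTL7A, a methyltransferase-like protein of lipid droplets and the endoplasmic reticulum, had 0, 37.0, 28.2, 10.9 and 5.53 CPM in input 1 to 5. It had 152, 56.2, 118, 45.1, 71.3, 17.1 and 194 in enriched 1 to 7. Only enriched 6 lay within the input range. It missed the threshold per library total (2.22 ± 0.70 SE; limma adjusted p = 0.0575) and passed it per tags in peaks (2.64, limma adjusted p = 0.0464), without enriched 6 (2.62, limma adjusted p = 0.0407) and with edgeR (2.06, adjusted p = 0.00421).

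The next genes with 1 sign in all sets did not pass with limma. They were the 5.8S ribosomal RNA genes RNA5-8SN1 (2.08, limma adjusted p = 0.069) and RNA5-8SN3 (1.73), whose near-identical copies cannot be told apart by short tags. Then came the cell-surface proteoglycan SDC1 (1.53), SFT2D2 (1.32), NEMP1 (1.32), CNP (1.31), DEK (1.31), the calcium sensor NCS1 (1.29) and the nuclear pore component NUP133 (1.16). SDC1, SFT2D2, NEMP1, CNP and NCS1 had most of their tags in the 3'UTR. Other tests called some of them higher: edgeR called RNA5-8SN1 (adjusted p = 0.0028), RNA5-8SN3 (0.00657) and CNP (0.0264). edgeR with TMM on tags in peaks called these and also NCS1 (adjusted p = 0.0209), DEK (0.0471) and NUP133 (0.0495). limma with the replicate block over 4 same-numbered pairs called RNA5-8SN1 (adjusted p = 0.0248) and RNA5-8SN3 (0.0390).

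**Figure D5:**
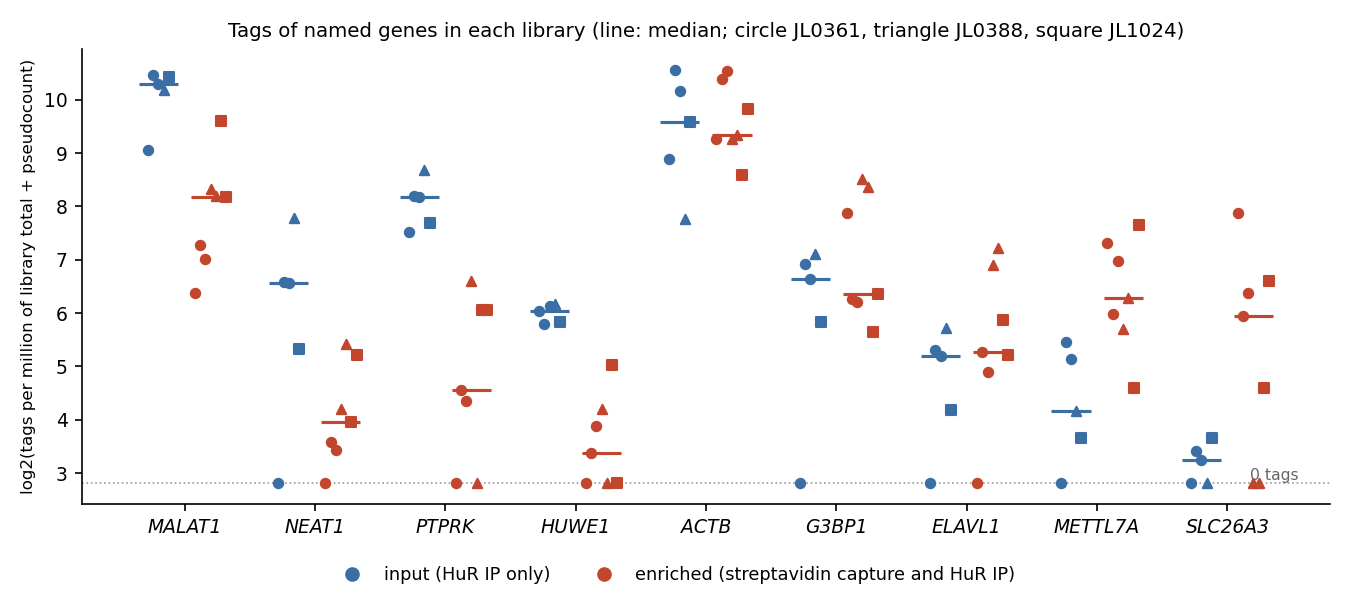
Tags of 9 genes per library, as log2 of CPM plus the pseudocount of 7.03; blue is input, red is enriched, symbols give the library set and lines the medians. MALAT1, PTPRK and HUWE1 lie lower in enriched libraries, ACTB, G3BP1 and ELAVL1 overlap, and SLC26A3 lies above every input library in 5 of 7 enriched libraries.

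Messenger RNAs that HuR is known for had few calls. Of the 26 listed HuR targets, 24 held tags and 20 were tested. limma called 0 of them, where 2.03% of all genes were called lower and 0.017% higher. At an unadjusted p under 0.05 it had 0 higher and 2 lower per library total, but 2 higher and 0 lower per tags in peaks. Over all 5866 genes it then had 35 higher and 1149 lower per library total, and 93 and 660 per tags in peaks. edgeR called 2 lower, MCL1 (-2.82) and TRA2B (-1.82), and 0 higher, beside 22.7% lower and 1.23% higher over all genes tested. With TMM on tags in peaks it kept MCL1 alone (adjusted p = 0.0476), beside 10.9% lower and 2.66% higher over all genes. The limma median of the tested targets was -0.20 per library total and 0.15 per tags in peaks, beside -0.41 and -0.18 over all genes. ACTB ran from 211 to 1501 CPM in input and from 376 to 1470.4 in enriched libraries, and its log2 difference was 0.37 ± 0.36 (SE; limma adjusted p = 0.611). ELAVL1, which encodes HuR, differed by 0.58 ± 0.70 (SE; limma adjusted p = 0.706). Neither group of libraries stood apart for either gene.

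Transcripts known from stress granules gave few calls. The list of RNAs reported in arsenite granules of other cells had 8 members, of which 6 were tested. limma called 0 of these higher and 1 lower, where 0.017% and 2.03% of all genes were. edgeR called 0 higher and 2 lower, where 1.23% and 22.7% of all genes were. Counts this small do not set the list apart from other genes. NORAD, a cytoplasmic long non-coding RNA, differed by -0.64 ± 0.70 (SE; limma adjusted p = 0.665) and took different signs in the sets, with 1.79 in JL0388. HUWE1, a ubiquitin ligase on the same list, was called lower (-2.47 ± 0.68 SE; limma adjusted p = 0.0297; edgeR adjusted p = 0.000766). It had 48.7 to 65.1 CPM in input and 0 to 25.6 in enriched libraries, with no overlap, and 184 of its 194 input tags were intronic. edgeR also called CENPF lower (-2.25), a call lost with TMM on tags in peaks. HUWE1 did not pass per tags in peaks (limma adjusted p = 0.164) or without any 1 of enriched 2, 3, 5 and 7 and input 2, 3 and 4 (limma adjusted p from 0.0619 to 0.121). The 27 genes for stress granule proteins had 24 tested members, of which limma called 0. At an unadjusted p under 0.05, 6 were lower per library total, where 1149 of all 5866 genes were. Per tags in peaks 1 was lower and 1 higher, where 660 and 93 of all genes were. edgeR called 3 lower, ATXN2 (-2.36) and USP10 (-2.19) among them, beside 22.7% lower over all genes tested. G3BP1, the bait, differed by 1.05 ± 0.65 (SE; limma adjusted p = 0.358), with 42.7 to 361 CPM in enriched and 0 to 131 in input libraries. The fusion transcript and the gene's own transcript were not separated here.

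The other 7 lists of pathway genes had no limma call, where limma called 2.03% of all genes lower and 0.017% higher. At an unadjusted p under 0.05 each had 0 to 3 lower and 0 higher members per library total, where 1149 and 35 of all 5866 genes were. With the replicate block limma called members lower in 5 of these lists, where it called 5.82% of all genes lower. They were 2 of 18 translation factors, 2 of 6 cytoplasmic long non-coding RNAs, 1 of 28 ribosomal protein genes, 1 of 13 arsenite response genes and 1 of 26 splicing factor genes. By edgeR, 1 of 18 translation factors was higher, EIF5A (1.79, adjusted p = 0.0122), and 4 were lower, EIF4A2, EIF3H, EIF4G2 and EIF2S2. Of 21 tested ribosomal protein genes, 4 were lower (RPL5, RPL13A, RPS12 and RPL37) and 0 higher. Of 26 splicing factor genes, 4 were lower (SRSF5, SRSF11, HNRNPA2B1 and HNRNPR). Of 6 cytoplasmic long non-coding RNAs, 2 were lower, SNHG6 and SNHG1, both hosts of snoRNAs in their introns. Of 9 arsenite response genes, 2 were lower, HSPH1 (-4.22) and SLC7A11 (-2.19), and of 12 secreted and ER protein genes 1 was, FN1 (-1.80). Immediate early genes had 0 calls among 13 tested. Over all genes edgeR called 22.7% lower and 1.23% higher. With TMM on tags in peaks, where edgeR called 10.9% of all genes lower and 2.66% higher, EIF5A was still called. RPL13A was then the only ribosomal protein gene called, and EIF2S2, SNHG6, SLC7A11, FN1 and HNRNPR lost their calls. These members were named after their values were seen.

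Single peaks gave few calls. In simulated data, limma and edgeR each called 0 of the 125 testable peaks that had been changed 4-fold. Of 7073 tested peaks, limma called 1 lower (0.0141%) and 0 higher (118 higher and 364 lower at an unadjusted p under 0.05), and edgeR called 30 lower (0.424%) and 54 higher (0.763%). The balance depended on the test: edgeR with TMM on tags in peaks called 46 lower (0.65%) and 8 higher (0.113%), and voom with sample weights 14 lower (0.198%) and 74 higher (1.05%). The peak that limma called peak lies in MALAT1 at chr11:65501022-65501042 on the plus strand of GRCh38.p14, coordinates as in the authors' table. It held 1040, 977, 427 and 172 tags in input 2 to 5 and 5 in input 1, against 0, 56, 41, 10, 3, 66 and 5 in enriched 1 to 7. It carried 61.3% of all MALAT1 tags of the 12 libraries. Its log2 difference was -3.12 ± 0.54 (SE; limma adjusted p = 4.42e-05). It lost the call under the replicate block of limma (-4.05, adjusted p = 0.231), without input 1 (limma adjusted p = 0.0737) and without the set JL0361 (limma adjusted p = 0.0848). The same held for edgeR with TMM on tags in peaks (adjusted p = 0.0612) and DESeq2 (adjusted p = 0.0567). The next lowest named peaks did not pass with limma: ETNK1 at chr12:22640410-22640430 (adjusted p = 0.075), an intron of ANKRD30BL at chr2:132255017-132255037 (-2.84) and LINC02476 at chr7:119794092-119794112 (-2.27). By edgeR they were called lower: ETNK1 (-6.90, adjusted p = 0.00874), ANKRD30BL (-3.77, 0.0163) and LINC02476 (-4.63, 0.0118). The ETNK1 peak had 0 tags in all 7 enriched libraries and 63 in the input libraries. Higher by edgeR were 16 of 205 tested peaks of the class Other, 11 of 132 of TE, 15 of 788 without annotation and 7 of 672 in introns. So were 2 of 531 ncRNA, 2 of 108 downstream and 1 of 4479 3'UTR peaks. Its lower calls included 12 of the intron, 11 of the ncRNA and 2 of the 3'UTR peaks tested. The highest peaks with 1 sign in all sets were those of the 5.8S ribosomal RNA genes and a 3'UTR peak of OSBPL11 at chr3:125529429-125529449 (1.78; limma adjusted p = 0.711), none of which passed with limma.

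Whether capture shifted the HuR tags differently under arsenite was tested against the 10 mock libraries of the same line, 6 enriched and 4 input. In mock-treated cells the capture differences were 10.8 points for the 3'UTR share and -12.4 for the intron share. Under arsenite they were 16.4 and -21.8. The interaction was 6.13 points for 3'UTRs (exact permutation p = 0.481) and -9.43 for introns (exact permutation p = 0.124). For the 3'UTR part within genes it was 10.8 points (exact permutation p = 0.295). Without the set JL0361 these were 11.5 points (exact permutation p = 0.319), -16.4 points (p = 0.0556) and 17.5 points (p = 0.236). The mock intron difference was -22.4 points in JL0361, -14.9 in JL0388 and 5.22 in JL1024, where the mock input held 1353 tags in peaks. Over 9345 genes, limma called 0 interactions (81 higher and 212 lower at an unadjusted p under 0.05). edgeR called 2 in each direction (0.0214% each), TRIM66 and NR2F2-AS1 higher and AGMO and ARHGAP42 lower, which were named after their values were seen. The arsenite and mock comparisons share no library. The mock libraries held 519 to 143744 tags in peaks, and in these 3 shares no interaction passed the exact test, with or without JL0361.

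Capture differences in lines with APEX in other places were set beside those of the G3BP line, and no class differed between lines after adjustment. In the line with APEX directed to the nucleus (NLS), the 3'UTR difference under arsenite was -11.0 points in JL0388 and -3.46 in JL1024, and that of introns 8.26 and 1.48. In the line with cytoplasmic APEX (NES) the 3'UTR difference was 20.7 and -6.20 points in these sets, and that of introns -17.7 and -18.1. Over the same 2 sets, the G3BP line had 24.5 points for 3'UTRs and -21.3 for introns. The difference between the G3BP and NLS lines was 31.7 points for 3'UTRs and -26.2 for introns (exact permutation p = 0.0417 each, adjusted p = 0.139). It was 44.5 points for the 3'UTR part pooled over genes with both kinds of peak (exact permutation p = 0.0278). With libraries that agree within sampling noise counted once, these were 27.4 and -21.2 points (exact permutation p = 0.125 and 0.167) and 39.0 points (p = 0.0833). Between the G3BP and NES lines the differences were 17.3 points for 3'UTRs (exact permutation p = 0.0556), -3.36 for introns (p = 0.569) and 12.8 for that pooled 3'UTR part (p = 0.167).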

How the data were processed

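HuR CLIP-seq coverage was taken from the combined peak table. Its values are a signal: a peak's tags over a library total, as deposited, and whole tags came back for 100% of values within 0.1. Bowtie2, SAMtools, bedtools and HOMER and the build GRCh38.p14 are named in the submitters' processing notes, without versions or roles. What the total counts, and the filters used, are not given in the sources used here. Of 395471 lines, 8257 repeats were dropped, and 84358 peaks without a gene name stayed out of the gene sums. The members and gene lists were chosen with earlier results of these data known.

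Tags were scaled to the library total (from 13149 to 1206979) and, as the other scaling, to tags in peaks. Features with a tag in at least 5 libraries were tested with limma 3.58.1 (R 4.3.3) on log2 of CPM (tags per 1000000 of the total) plus 7.03 (55.7 where scaled to tags in peaks), with the library set as covariate and Benjamini-Hochberg adjusted p under 0.05. edgeR 4.0.16 (quasi-likelihood) and DESeq2 1.42.0 ran on whole tags. Shares were tested by permuting labels within sets, over all 180 labelings. The number of libraries and these depths limit the precision.

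A chi-square comparison found no difference beyond sampling noise between enriched 4 and 5. In JL0361, same-numbered enriched and input libraries deviated together (correlations 0.147, 0.105 and 0.103 over 5866 genes), but so did enriched 2 with input 3 (0.108) and enriched 3 with input 2 (0.123), and for genes with at least 500 tags the third pair had 0.0813. JL0388 has 1 input and was not checked. The 4 same-numbered pairs entered the replicate block, though the check does not tell numbers 2 and 3 apart. Named genes were the 10 called genes farthest from 0 in each direction with 1 sign in all sets, filled with uncalled genes of at least 30 tags in order of the test statistic, and the 2 most abundant tested members of each list, with ACTB, G3BP1, ELAVL1, MALAT1 and NEAT1. In data simulated for the gene test, 200 genes were changed 4-fold, and of the 179 that could be tested limma called 6 raised and 1 lowered, and edgeR 57 and 12. For genes with at least 200 tags these were 60 and 22, and 88 and 66, of 200. Unchanged genes called were 9 and 10 by edgeR and 0 and 1 by limma in these runs. Of 165 testable regions limma called 1 raised and 0 lowered, and edgeR 39 and 11. Of 125 testable peaks both tools called 0. Of the lists, 1 member's result is not reported here.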

Additional observations from a re-analysis of the deposited data

Results flagged for a closer look

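Of 114 groups of libraries examined, 10 had a highest or lowest sample far from the rest, where chance gives about 1 in 20. In the enriched group, the mean of enriched 4 and 5 was highest for tags in peaks (18.0% of the library total, next 10.8%) and for CDS tags (1.42% of tags in peaks, next 0.730%). Enriched 6 was highest for introns (32.7%, next 18.8%), lowest for the 3'UTR part within genes (47.5%, next 71.8%) and highest for TRMT11 (log2 5.03, next 3.50). Enriched 7 was highest for snoRNA (1.10%, next 0.292%), and enriched 1, the shallowest library, had no TXNRD1 tag (log2 2.81). Among input libraries, input 1 was highest for peaks without annotation (14.6%, next 12.4%) and lowest for MALAT1 (log2 9.06, next 10.19), and input 5 was highest for RNA5-8SN1 (log2 5.33, next 3.41).

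Capture differences under arsenite also differed between lines by the exact permutation test of the difference, before adjustment over classes. Between G3BP and NES these were the 5'UTR share (0.381 points, exact p = 0.0139) and the class Other (-1.37 points, exact p = 0.0139). Between G3BP and NLS they were the 3'UTR share (31.7 points), the intron share (-26.2 points) and the downstream class (0.415 points), with exact p = 0.0417 each, and the 3'UTR part within genes (44.5 points, exact p = 0.0278). After adjustment over the 10 classes none of the class differences passed (adjusted p = 0.0694 for NES and 0.139 for NLS). With 144 labelings the exact test cannot go below p = 0.0139, so a single class could not have passed.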

How the results depend on the processing

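The intron share, the 3'UTR part within genes, the share of nucleus-leaning peaks and the percent of tags in peaks kept their direction in all 22, 19, 19 and 19 alternatives, and had an unadjusted p under 0.05 wherever the exact test could reach it. Within a set (smallest p 0.1 in JL0361 and 0.333 in the others) or over the 4 pairs (0.125) it could not, so those values say nothing of the threshold. With peaks of at least 10 tags the intron share differed by -7.95 points. Leaving out 1 library gave -24.2 to -19.8, 27.9 to 35.5 and -6.78 to -4.74 points for the first, the second and the last. The replicate block gave -24.0, 34.8 and -7.29 points, and 16.4 for the 3'UTR share. The 3'UTR share was 10.0 to 21.4 points with 1 library left out (10.0 without input 4). Its unadjusted p was under 0.05 without enriched 1 (21.4) and without enriched 6 (18.2). The same held without the set (16.7), without both JL0361 libraries numbered 1 (20.8) and with each peak counted once (18.2). Peaks without annotation turned to -0.540 points of the library total, and snoRNA ran from -0.114 to 0.0744 points with 1 library left out. With pairs counted once, G3BP against NLS gave 27.4 points for 3'UTRs and -21.2 for introns.

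Counts of calls were least stable. The 120 genes became 16 (tags in peaks), 18 and 193 (pseudocount 4 times smaller and larger), 316 (at least 20 tags), 1404 (edgeR), 796 (edgeR, TMM), 346 (DESeq2), 206 (voom), 43 (enriched 4 and 5 once), 12 (centred), 34 (no filter), 26 (no set), 7 (JL0361 alone), 0 (without JL0361) and 792 (without both numbered 1). The replicate block gave 392 genes and the same 8 libraries without it 6. Leaving out 1 library gave 17 to 1085 genes, 0 to 4 peaks, 1 to 1691 regions and 0 interaction genes. The 1 peak became 3 (at least 20 tags), 84 (edgeR), 54 (TMM), 11 (DESeq2), 88 (voom), 2 others (replicate block) and 0 (no filter, without JL0361, without both numbered 1). The 215 regions became 4 (tags in peaks), 71 (smaller pseudocount), 714 (at least 20 tags), 1475 (edgeR), 1129 (TMM) and 79 (enriched 4 and 5 once). edgeR gave 4 interaction genes. Among named genes, 1130 of the alternative values neither lost, gained nor reversed a call (69 of them changed sign where neither value passed), 67 lost the call, 44 gained it and 0 reversed; the causes were not tested. The motif shares planned were not run, since no genome was used here. Enriched libraries with few tags limit every test of single features.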
